A study of Mus musculus with 6 samples.

Results

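The genes of the cell cycle and of DNA replication were followed in the adipose tissue of mice with cancer-associated cachexia (CAC), the wasting that tumors cause. The set was a fixed list of 45 gene symbols, looked up by name among the 55039 genes of the count and FPKM tables, and all 45 were found. They were split by their known role into 19 S phase and G1/S genes, which copy DNA or start its copying, and 26 G2 and mitosis genes, which divide the chromosomes. Male C57BL/6 mice, aged 6 to 7 weeks when they entered the study, received Lewis lung carcinoma (LLC) cells, a mouse lung tumor line, under the skin of the lower back (CAC), or phosphate-buffered saline alone (CONT). The fat pad attached to the epididymis (eWAT) was taken 28 days later from 3 mice per group, and mRNA was sequenced with 1 library per mouse. The sources name no mutation or transgene in either group, and all mice shared strain, sex, age and time of sampling.

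Cells copy their DNA in S phase and separate the copies in mitosis. The MCM helicase is loaded on DNA and unwinds it, the sliding clamp Pcna holds the polymerases, and ribonucleotide reductase and thymidylate synthase supply the building blocks, under the control of E2F factors and E cyclins. Cyclins A and B with Cdk1 then drive entry into mitosis, in which the aurora and polo kinases, the spindle checkpoint and the kinetochore proteins act. Mature adipocytes do not divide, so in resting fat these transcripts are known mostly from progenitors, macrophages and other cells between the adipocytes. In a bulk sample, fewer dividing cells and less RNA per cell cannot be told apart.

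In every library reads were found for 9 of 9 adipocyte markers, which goes with the tissue label but does not measure purity. Libraries held 15713794 to 25926425 counted reads, and 1 CPM, the unit of level used here (counts scaled to a common, TMM-adjusted library size), stood for 11.2 to 26.5 reads. Transcripts of testis stood out in CONT replicate 2 and CAC replicate 3. The 12 testis markers summed to 1310 CPM in CONT replicate 2 and 1805 CPM in CAC replicate 3, against 5.01 to 28 CPM in the other 4 libraries, and Prm2, a protamine of sperm chromatin, had 7321 and 13728 reads there against 0 to 116 elsewhere. Dividing germ cells use the same mitotic genes, but whether they account for mitotic levels in these libraries was not tested. The main results are given with and without these libraries. CONT replicate 3 held epididymis transcripts, with 12300 CPM over 9 markers. CONT replicate 1 had 202 CPM of them and the other 4 libraries 0.161 to 16.5 CPM. CONT replicate 1 also had 30.2% of its counts on mitochondrial genes, against 3.89% to 5.04% elsewhere.

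Across the 6 libraries, S phase genes as a group lay at about the same level in CAC and CONT mice, apart from 4 regulators and helicase components that were lower in every CAC mouse: E2f1, Ccne1, Gins2 and Mcm2. A gap of that kind, with every CAC library below every CONT library, was seen for 5 of 44 members tested and for 10.7% of all genes. Genes of mitosis had a median log2 fold change of -0.39, which was 0.34 without CONT replicate 2 and -1.66 without CAC replicate 3, and the libraries of both groups overlapped in 24 of 25 of them. With the testis-bearing libraries left out, the mitotic genes were lower in both remaining CAC mice than in both remaining CONT mice for 20 of 25, against 18.6% of all genes (median -1.04 on the same scale). The remaining CONT mice were replicate 1, with its high mitochondrial share, and replicate 3, with its epididymis transcripts. No member passed the test in either fit.

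In numbers, 44 members could be tested with edgeR's quasi-likelihood method, and 0 reached an adjusted p under 0.05, as did 0 of all 17296 genes tested (0.0%, with 2294 genes at an unadjusted p under 0.05). At an unadjusted p under 0.05, 4 members were lower in CAC, against 6.95% of all genes, and 0 were higher, against 6.31% of all genes. DESeq2 called 0 members at an adjusted p under 0.05, against 5.62% of all genes, and voom with sample quality weights called 4, the same E2f1, Ccne1, Gins2 and Mcm2, among 956 of all 17296 genes (5.53%). The adjusted p of these 4 was 0.291 to 0.345 by edgeR, 0.0514 to 0.148 by DESeq2 and 0.0376 to 0.0420 by voom. Every CAC library lay above every CONT library for 0 members, against 11.8% of all genes. The log2 fold change was below 0 for 28 of 44 members, against 54.1% of all genes. The only member that the filter on low counts removed was Cdc25c, a phosphatase that activates Cdk1, with 1, 38 and 4 reads in CONT replicates 1 to 3 and 0, 1 and 35 in CAC replicates 1 to 3.

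**Figure D1:**
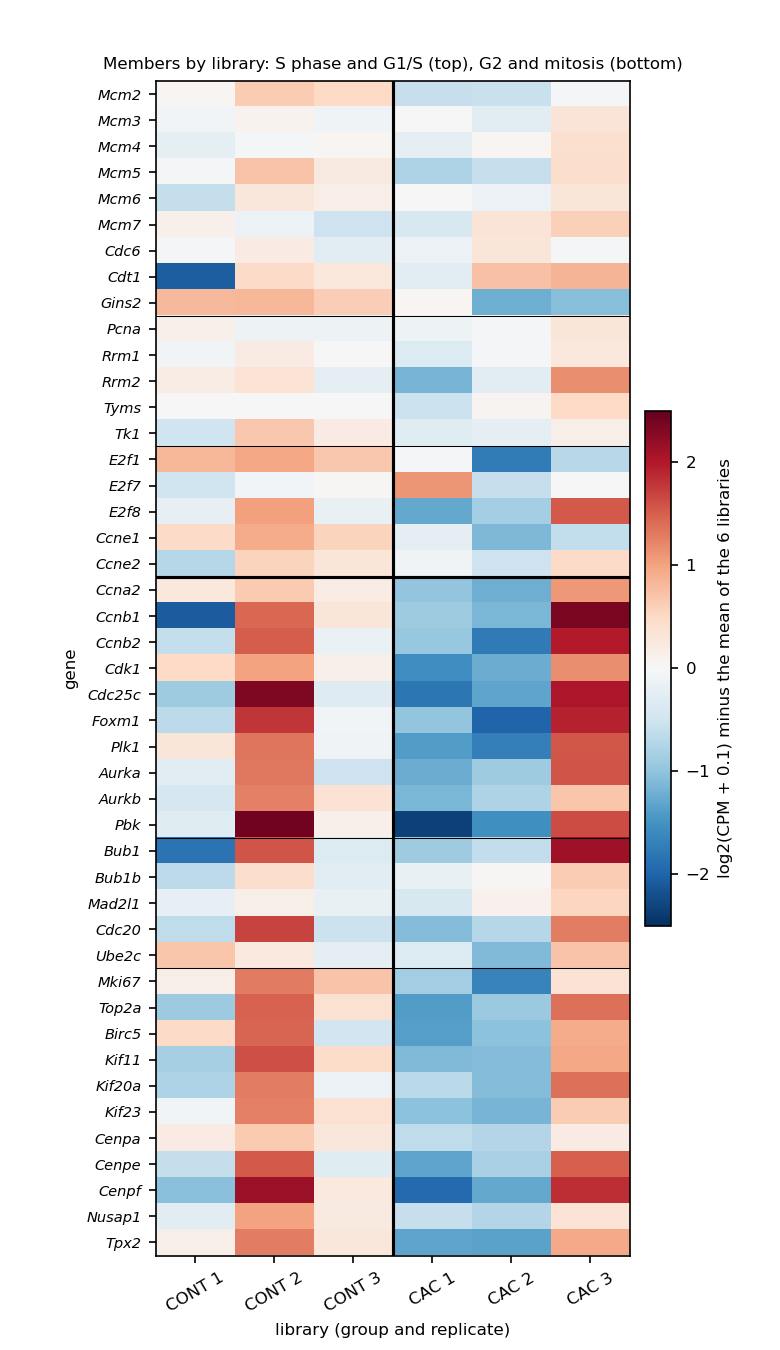
Level of the 45 members in the 6 libraries, as log2(CPM + 0.1) minus the gene's mean over the libraries (red above, blue below), with 19 S phase and G1/S genes in the upper block and 26 G2 and mitosis genes in the lower block; thin lines separate the roles. The mitosis block is reddest in CONT replicate 2 and CAC replicate 3, which hold the highest value of all 26 mitosis members, and bluest in CAC replicates 1 and 2.

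Promoters of the S phase and of the mitosis members held known cell cycle motifs at different rates, given here as a description with no test. The windows, from 250 bases before to 50 bases after the start site (RefSeq, mouse build GRCm38.p6), were matched for 16 of 19 S phase members, 19 of 26 mitosis members and 20481 genes in all. Searched on both strands were the cell cycle genes homology region (CHR, TTTGAA), the CCAAT box (CCAAT) that the factor NF-Y binds, and the E2F site written as TTTCCCGC, TTTCGCGC, TTTGCCGC or TTTGGCGC; E2F matches on opposite strands can overlap each other. A CHR match was in 68.4% of the mitosis windows (13 genes), in 12.5% of the S phase windows and in 16.8% of all windows. All 13 mitosis windows with a CHR also held a CCAAT box, a combination found in 6.67% of all windows and in 12.5% of S phase windows. A CCAAT box, with or without a CHR, was in 84.2% of mitosis windows, 62.5% of S phase windows and 38.2% of all. An E2F match was in 43.8% of S phase windows (7 genes), in 5.26% of mitosis windows (Cdk1 alone) and in 2.63% of all. These matches describe letters, not binding. The 250 bases before the start site are shown for 3 mitosis members that serve as common readouts of dividing cells (Mki67, Top2a, Cdk1), for Mcm2 as a helicase member whose groups did not overlap, and for Mcm6, picked because it holds several E2F matches. Each is on the minus strand of GRCm38.p6 and written 5′ to 3′, with Mki67 at chr7:135716380-135716629, Top2a at chr11:99024190-99024439, Cdk1 at chr10:69352913-69353162, Mcm2 at chr6:88898781-88899030 and Mcm6 at chr1:128359706-128359955. Capitals mark every match to the CHR, CCAAT and E2F letters on either strand.
Mki67: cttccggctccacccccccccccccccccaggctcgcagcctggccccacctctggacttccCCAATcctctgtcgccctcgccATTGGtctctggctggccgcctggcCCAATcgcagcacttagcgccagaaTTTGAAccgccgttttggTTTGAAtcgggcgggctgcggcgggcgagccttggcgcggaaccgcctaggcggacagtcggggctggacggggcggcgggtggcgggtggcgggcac
Top2a: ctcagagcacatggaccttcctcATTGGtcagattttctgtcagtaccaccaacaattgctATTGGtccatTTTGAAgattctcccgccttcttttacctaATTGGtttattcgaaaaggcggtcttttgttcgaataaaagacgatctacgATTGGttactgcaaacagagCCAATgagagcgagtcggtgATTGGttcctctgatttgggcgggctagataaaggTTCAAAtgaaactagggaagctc
Cdk1: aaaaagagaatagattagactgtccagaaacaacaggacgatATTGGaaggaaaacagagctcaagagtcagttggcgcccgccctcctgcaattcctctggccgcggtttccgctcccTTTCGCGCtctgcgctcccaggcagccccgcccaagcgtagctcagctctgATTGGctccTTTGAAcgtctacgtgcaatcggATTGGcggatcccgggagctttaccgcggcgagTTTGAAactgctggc
Mcm2: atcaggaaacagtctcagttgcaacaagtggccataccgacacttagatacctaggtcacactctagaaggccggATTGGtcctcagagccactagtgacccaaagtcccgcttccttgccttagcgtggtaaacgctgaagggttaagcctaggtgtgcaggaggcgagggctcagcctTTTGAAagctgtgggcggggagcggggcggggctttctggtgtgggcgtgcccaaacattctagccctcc
Mcm6: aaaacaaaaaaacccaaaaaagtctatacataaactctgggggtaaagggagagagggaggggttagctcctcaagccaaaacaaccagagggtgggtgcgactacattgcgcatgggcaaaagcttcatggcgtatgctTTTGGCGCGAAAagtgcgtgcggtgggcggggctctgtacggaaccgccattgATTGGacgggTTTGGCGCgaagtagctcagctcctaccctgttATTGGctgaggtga

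The MCM genes encode the 6 subunits of the helicase ring, and Mcm2 was the one with the lowest CAC values relative to CONT. It lies at chr6:88883474-88898780, minus strand (GRCm38, as in the count table). It was 10.2, 15.3 and 13.9 CPM in CONT replicates 1 to 3 and 6.57, 6.62 and 9.59 CPM in CAC replicates 1 to 3. All CAC libraries lay below all CONT libraries, with means of 7.59 ± 1.73 and 13.1 ± 2.67 CPM (SD, n = 3 each). Its log2 fold change was -0.79 ± 0.30 (SE) at an unadjusted p of 0.0355 and an adjusted p of 0.345 by edgeR, and -0.87 ± 0.41 without the testis-bearing libraries. The other 5 subunits had log2 fold changes between -0.55 for Mcm5 and 0.39 for Mcm7, and their libraries overlapped. Leaving out the testis-bearing libraries, Mcm5 had -0.78 ± 0.45, with both CAC libraries below both CONT libraries, and Mcm7 had 0.17 ± 0.40. Mcm7 was 42.4, 35 and 26.9 CPM in CONT and 29.4, 48.7 and 58.9 CPM in CAC. The 2 highest values were CAC libraries and the lowest a CONT library, and edgeR gave an unadjusted p of 0.242.

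Gins2, a subunit of the GINS complex that activates the loaded helicase, had the largest difference of the helicase group (chr8:120578633-120589304, minus strand). It was 9.01, 9.15 and 7.82 CPM in CONT replicates 1 to 3 and 5.26, 2.14 and 2.38 CPM in CAC replicates 1 to 3. The 3 CONT mice were close together and each was above every CAC mouse. The log2 fold change was -1.41 ± 0.44 (SE; unadjusted p = 0.0168, adjusted p = 0.291 by edgeR) and -1.19 ± 0.60 without the testis-bearing libraries. Of the exon bases of Gins2, 67.3% also lie in exons of Gse1 on the opposite strand, and the strand setting of the counting is not given in the sources used here. How reads in the shared part were assigned is therefore not known, and Gse1 itself was 4.46, 24.4 and 30.3 CPM in CONT and 30.6, 23.5 and 12.9 CPM in CAC. The loading factors Cdc6 and Cdt1 had log2 fold changes of 0.07 ± 0.37 and 0.60 ± 0.68, with overlapping libraries, and 0.25 ± 0.55 and 0.79 ± 0.89 without the testis-bearing ones.

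The clamp and the enzymes that supply nucleotides overlapped between the groups in all 6 libraries. Pcna, by FPKM the most abundant of the 45 members (median 19.1 over the libraries), was 64.3, 54.0 and 54.0 CPM in CONT and 54.1, 57.9 and 73.4 CPM in CAC. The ranges overlapped, and the log2 fold change was 0.11 ± 0.19 (SE; unadjusted p = 0.594 by edgeR), turning to -0.08 ± 0.28 without the testis-bearing libraries. Rrm1, the large subunit of ribonucleotide reductase, was 22.8, 27.5 and 24.0 CPM in CONT and 18.8, 23.2 and 28.9 CPM in CAC. Tk1, a thymidine kinase of the salvage pathway, was 3.66, 8.45 and 6.06 CPM in CONT and 4.23, 4.44 and 5.78 CPM in CAC. Both overlapped, with log2 fold changes of -0.07 ± 0.22 and -0.33 ± 0.41, and of -0.16 ± 0.30 and -0.17 ± 0.53 without the testis-bearing libraries. Tyms, the thymidylate synthase, had 0.08 ± 0.37, and Rrm2, the small reductase subunit made in S phase, had 0.12 ± 0.65. Like Pcna, both turned direction without the testis-bearing libraries, to -0.20 ± 0.49 for Tyms and -0.66 ± 0.63 for Rrm2, and in Rrm2 both CAC libraries then lay below both CONT libraries.

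E2f1, a transcription factor that switches on S phase genes, and Ccne1, the cyclin that activates Cdk2 at the start of S phase, were both lower in all CAC mice. E2f1 lies at chr2:154559407-154569892, minus strand and Ccne1 at chr7:38097984-38107534, minus strand. E2f1 was 11.2, 12.2 and 9.94 CPM in CONT replicates 1 to 3 and 6.12, 1.78 and 3.81 CPM in CAC replicates 1 to 3. The CONT values were close together and all above the CAC values. With a log2 fold change of -1.51 ± 0.48 (SE; unadjusted p = 0.0176, adjusted p = 0.294 by edgeR), E2f1 had the lowest value of the 44 members tested. Ccne1 was 3.75, 5.12 and 3.98 CPM in CONT and 2.26, 1.17 and 1.70 CPM in CAC. Again no CAC library reached a CONT library, with a log2 fold change of -1.32 ± 0.43 (SE; unadjusted p = 0.0187, adjusted p = 0.298 by edgeR). Without the testis-bearing libraries the log2 fold changes were -1.42 ± 0.69 for E2f1 and -1.17 ± 0.63 for Ccne1.

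The other members of that group overlapped between CAC and CONT in all 6 libraries. E2f7, a repressor of the E2F family, was 3.12, 4.25 and 4.52 CPM in CONT and 9.73, 2.95 and 4.46 CPM in CAC. The highest and the lowest value were both CAC libraries, and the log2 fold change was 0.52 ± 0.52 (unadjusted p = 0.347 by edgeR), or 0.72 ± 0.72 without the testis-bearing libraries. E2f8, its close relative, was 0.452, 0.646 and 3.78 CPM in CAC replicates 1 to 3, with a log2 fold change of 0.02 ± 0.91. In the other 4 libraries E2f8 had -0.97 ± 0.72, with both CAC libraries below both CONT libraries. Ccne2, the second E cyclin, had -0.14 ± 0.49, and -0.19 ± 0.64 without them. Of the 19 S phase and G1/S members, 11 were higher and 8 lower in CAC. Their median log2 fold change was 0.06, beside -0.06 over all genes. Without the testis-bearing libraries, 5 were higher and 14 lower with a median of -0.17, 7 had both CAC libraries below both CONT libraries (18.6% of all genes did), and 0 had an unadjusted p under 0.05 by edgeR, where 4 had one in all 6 libraries. That count of 4 also depended on single mice: it was 1 without CAC replicate 2, 2 without CONT replicate 2, 2 without CONT replicate 3 and 3 or 4 without each of the others.

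The mitosis members were mostly highest in the 2 testis-bearing libraries. Both testis-bearing libraries lay above the other 4 for 22 of 25 mitosis members, for 7 of 19 S phase members and for 8.96% of all genes. CONT replicate 2 exceeded the mean of CONT replicates 1 and 3 by a median of 2.67-fold over the mitosis members, and CAC replicate 3 exceeded the mean of CAC replicates 1 and 2 by 5.04-fold, while the same medians were 1.27 and 1.38 for S phase members and 1.01 and 0.975 for all genes. Summed over the 26 genes, mitosis members were 79.2, 224 and 99.2 CPM in CONT replicates 1 to 3 and 47.8, 48.0 and 209 CPM in CAC replicates 1 to 3. The lowest 2 sums were CAC replicates 1 and 2. S phase members summed to 239, 271 and 239 CPM in CONT and 208, 229 and 305 CPM in CAC, a much narrower spread. Against each other, CAC replicate 3 and CONT replicate 2 had a median log2 ratio of -0.05 over the mitosis members. With the summed testis marker level as a term in the edgeR fit, which was added after these levels had been seen, the mitosis members had a median log2 fold change of -0.53 and the S phase members one of 0.01. In that fit 2 of 25 mitosis members reached an unadjusted p under 0.05 by edgeR, Mki67 (-1.25 ± 0.37) and Pbk (-1.21 ± 0.47), as did 4 of 19 S phase members and 13.3% of all genes.

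**Figure D2:**
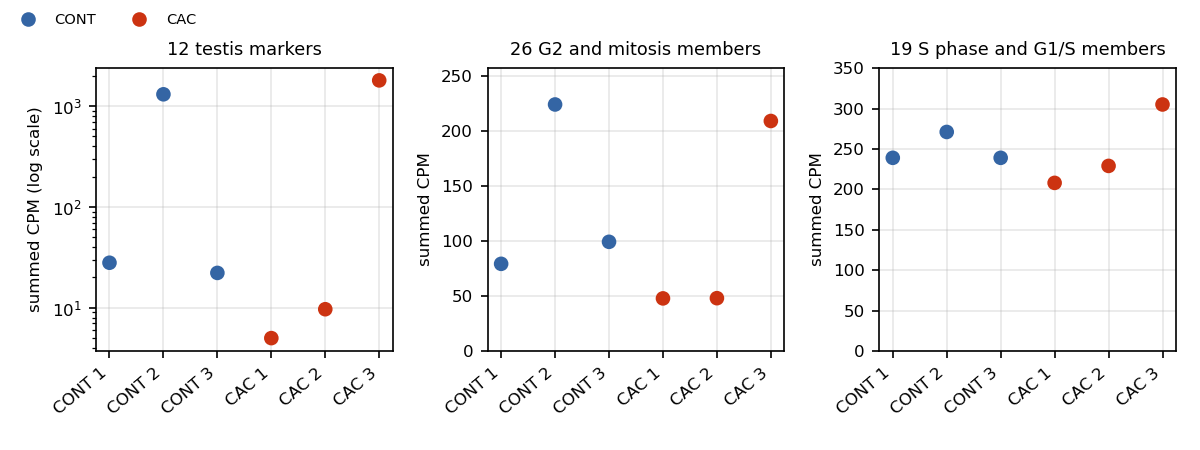
Summed CPM per library (x axis, group and replicate) of 12 testis markers on a log axis, and of 26 G2 and mitosis members and 19 S phase and G1/S members on linear axes from 0; each point is 1 library, blue CONT and red CAC. The mitosis sum is highest, at 224 and 209 CPM, in the 2 libraries whose testis markers reach 1310 and 1805 CPM, and the S phase sum stays between 208 and 305 CPM.

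Without these libraries, CAC replicates 1 and 2 were compared with CONT replicates 1 and 3, and 22 of 25 mitosis members had a log2 fold change below 0. Their median was -1.04 on the log2 scale, beside -0.06 over all genes. Both CAC libraries lay below both CONT libraries for 20 members, against 18.6% of all genes in that comparison, and above for 1, Bub1b. An unadjusted p under 0.05 by edgeR was reached by 5 members, all lower (Cdk1, Plk1, Pbk, Mki67 and Tpx2), against 2.83% of all genes, and their adjusted p was no lower than 0.824. The 4 libraries still held some testis marker reads, with sums of 28 and 22.2 CPM in CONT replicates 1 and 3 and 5.01 and 9.69 CPM in CAC replicates 1 and 2. The groups also differed in other ways. In CONT replicates 1 and 3 epididymis markers summed to 202 and 12300 CPM, against 0.205 and 0.161 CPM in those CAC mice. CONT replicate 1 had 30.2% of its counts on mitochondrial genes. The part of these traits in the result was not tested. This fit rests on 2 mice per group and was chosen after the marker levels had been seen. Leaving out CAC replicate 3 alone set the median at -1.66, with 9 members at an unadjusted p under 0.05 by edgeR (8.32% of all genes), and leaving out CONT replicate 2 alone set it at 0.34, with 0 such members (9.3% of all genes).

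Marker sums of some other cell types also separated the groups. Neutrophil markers (9 of 9 found) summed to 5.89, 34.3 and 68.8 CPM in CONT replicates 1 to 3. They summed to 136, 245 and 1280 CPM in CAC replicates 1 to 3. The highest of these sums was in CAC replicate 3, which also held testis transcripts. Macrophage markers (11 of 11) were 854 CPM in CONT replicate 1, 2310 CPM in CONT replicate 3 and 1810 and 973 CPM in CAC replicates 1 and 2. B and plasma cell markers (10 of 10) were 74.3 and 143 CPM in those CONT mice and 46.1 and 94.4 CPM in those CAC mice. T and NK cell markers (10 of 10) were 15.8, 30.6 and 81.4 CPM in CONT replicates 1 to 3 and 11.8, 13.2 and 13.1 CPM in CAC replicates 1 to 3. Progenitor and fibroblast markers (8 of 8) were 2240, 2610 and 2580 CPM in CONT and 2120, 2160 and 1610 CPM in CAC. Neutrophil sums were higher in every CAC library than in any CONT library. So were 5 of the 9 single markers, against 11.8% of all genes. Macrophage sums overlapped, as did all 11 single markers. The B and plasma cell sums overlapped with Sdc1, which held 69.7 of the 94.4 CPM of CAC replicate 2, and without it they were 58.6, 99.9 and 59.8 CPM in CONT and 21.5, 24.6 and 12.2 CPM in CAC. Of these 10 markers, 7 (Cd79a, Cd79b, Ms4a1, Jchain, Mzb1, Tnfrsf17 and Prdm1) were lower in every CAC library, against 10.7% of all genes. Both the T and NK cell sums and the progenitor and fibroblast sums were lower in every CAC library, but their markers differed in direction. Cd4 and Nkg7 were lower and Cd3e higher in every CAC library, and Klrb1c alone held 68.3 of the 81.4 CPM of CONT replicate 3. Sums without Klrb1c were 15.1, 28.3 and 13.2 CPM in CONT and 10.8, 11.7 and 11.1 CPM in CAC, still lower in every CAC library. Of the progenitor and fibroblast markers, Pi16, Col1a1 and Col3a1 were lower and Dcn higher in every CAC library, the other 4 overlapped, and the sums without Col3a1 overlapped. Erythroid sums were highest in CONT replicate 1, at 5690 CPM against 262 to 2450 CPM in the other libraries. Endothelial sums were too, at 2970 against 1190 to 1940 CPM. The part of these cells in the results was not tested.

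Among the cyclins and kinases that drive mitosis, all 9 tested members were highest in the testis-bearing libraries. Cdk1, the kinase that triggers mitosis, was 3.92, 5.61 and 2.98 CPM in CONT replicates 1 to 3 and 0.862, 1.09 and 6.23 CPM in CAC replicates 1 to 3. The gene lies at chr10:69335146-69352938, minus strand. CAC replicates 1 and 2 held the lowest values and CAC replicate 3 the highest of all 6. In all libraries the log2 fold change was -0.61 ± 0.82 (SE; unadjusted p = 0.484 by edgeR). Without the testis-bearing libraries it was -1.82 ± 0.62.

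Ccnb1, a B cyclin that activates Cdk1, turned direction with the same choice. It was 0.357, 5.12 and 2.26 CPM in CONT and 0.944, 0.767 and 9.74 CPM in CAC. CONT replicate 1, with 4 reads, was the lowest library, so the groups overlapped with and without the testis-bearing libraries. Its log2 fold change was 0.55 ± 1.24 in all libraries and -0.65 ± 0.99 without them.

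Pbk, a mitotic kinase also known from testis, was 0.981, 6.96 and 1.36 CPM in CONT and 0.164, 0.363 and 4.0 CPM in CAC. Aurkb, the aurora kinase of the chromosomal passenger complex, was 1.43, 4.77 and 2.53 CPM in CONT and 0.821, 1.09 and 3.21 CPM in CAC. In both genes CAC replicates 1 and 2 were lowest and CAC replicate 3 fell among the CONT libraries. The log2 fold changes were -1.04 ± 1.3 for Pbk and -0.77 ± 0.71 for Aurkb, and -2.13 ± 0.83 and -1.06 ± 0.70 without the testis-bearing libraries. Plk1, the polo kinase, went from -0.39 ± 0.99 to -1.76 ± 0.64. Ccna2, Ccnb2, Foxm1 and Aurka lay between -0.38 and 0.11 in all libraries and between -1.39 and -0.69 without those 2. Ccnb2 has an expressed pseudogene, Ccnb2-ps, with 183 reads against 716 for Ccnb2 itself, and reads of near-identical copies may have been split between them.

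Of the mitosis groups, the genes of the spindle checkpoint and the anaphase-promoting complex had the median log2 fold change nearest 0, at 0.21 against -0.38 for the kinases and cyclins and -0.74 for the spindle genes. Bub1b, a checkpoint kinase-like protein, was 4.19, 9.02 and 5.51 CPM in CONT and 5.87, 6.82 and 10.4 CPM in CAC. Mad2l1, which blocks anaphase until chromosomes attach, was 5.26, 6.70 and 5.29 CPM in CONT and 4.60, 6.54 and 8.84 CPM in CAC. Ube2c, a ubiquitin enzyme of the anaphase-promoting complex, was 6.15, 4.47 and 3.21 CPM in CONT and 2.92, 1.70 and 6.19 CPM in CAC. All of these overlapped between the groups, with log2 fold changes of 0.30 ± 0.42, 0.21 ± 0.36 and -0.35 ± 0.57. Without the testis-bearing libraries Bub1b and Mad2l1 stayed near 0 or above it, at 0.38 ± 0.47 and 0.08 ± 0.48, while Ube2c was -1.02 ± 0.65. Of the exon bases of Ube2c, 22.8% are shared with Tnnc2 on the opposite strand, which had 4 reads in all libraries together. Bub1 had 0.45 ± 1.18 and Cdc20, the activator of the same complex, -0.38 ± 0.91, and without the testis-bearing libraries they had 0.13 ± 0.89 and -0.32 ± 0.58.

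The spindle, kinetochore and chromosome proteins had all 11 log2 fold changes below 0, with and without the testis-bearing libraries. Their median was -0.74 in all libraries and -1.12 without the testis-bearing ones. Mki67 (chr7:135689784-135716361, minus strand), the gene of the proliferation antigen Ki-67, was 10.8, 24.2 and 16.0 CPM in CONT and 5.30, 2.99 and 12.5 CPM in CAC. The groups overlapped only through CAC replicate 3, which exceeded CONT replicate 1. Its log2 fold change was -1.29 ± 0.58 (SE; unadjusted p = 0.0649, adjusted p = 0.404 by edgeR). Without the testis-bearing libraries it was -1.69 ± 0.51, and both CAC libraries lay below both CONT libraries.

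Top2a, the topoisomerase that untangles chromosomes, was 3.83, 20.4 and 9.49 CPM in CONT and 2.71, 3.79 and 19 CPM in CAC. The testis-bearing libraries were alike at 20.4 and 19 CPM, and CONT replicate 1 was level with CAC replicate 2. Its log2 fold change was -0.41 ± 0.90, or -1.04 ± 0.64 without them. Cenpa, the histone of the centromere, was the only mitosis member that did not overlap in all 6 libraries, at 5.62, 7.66 and 5.92 CPM in CONT and 3.08, 2.87 and 5.59 CPM in CAC. CAC replicate 3 was just under the lowest CONT library, and the log2 fold change was -0.74 ± 0.40 (SE; unadjusted p = 0.112 by edgeR), or -0.96 ± 0.49 without the testis-bearing libraries.

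Kif23, a motor of the central spindle, was 3.12, 8.02 and 4.29 CPM in CONT and 1.56, 1.41 and 5.14 CPM in CAC. Only CAC replicate 3 reached the CONT range, and the log2 fold change was -0.93 ± 0.67, or -1.32 ± 0.59 without the testis-bearing libraries. The remaining 7 genes (Birc5, Kif11, Kif20a, Cenpe, Cenpf, Nusap1 and Tpx2) lay between -0.83 and -0.09 in all libraries and between -1.62 and -0.49 without the testis-bearing ones. Kif20a, a kinesin of cytokinesis, shares 29.3% of its exon bases with Cdc23 on the opposite strand, a far more abundant gene (4719 against 450 reads). By FPKM the mitosis members were scarce, from a median of 0.056 for Cdc25c to 1.33 for Ccnb2.

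**Figure D3:**
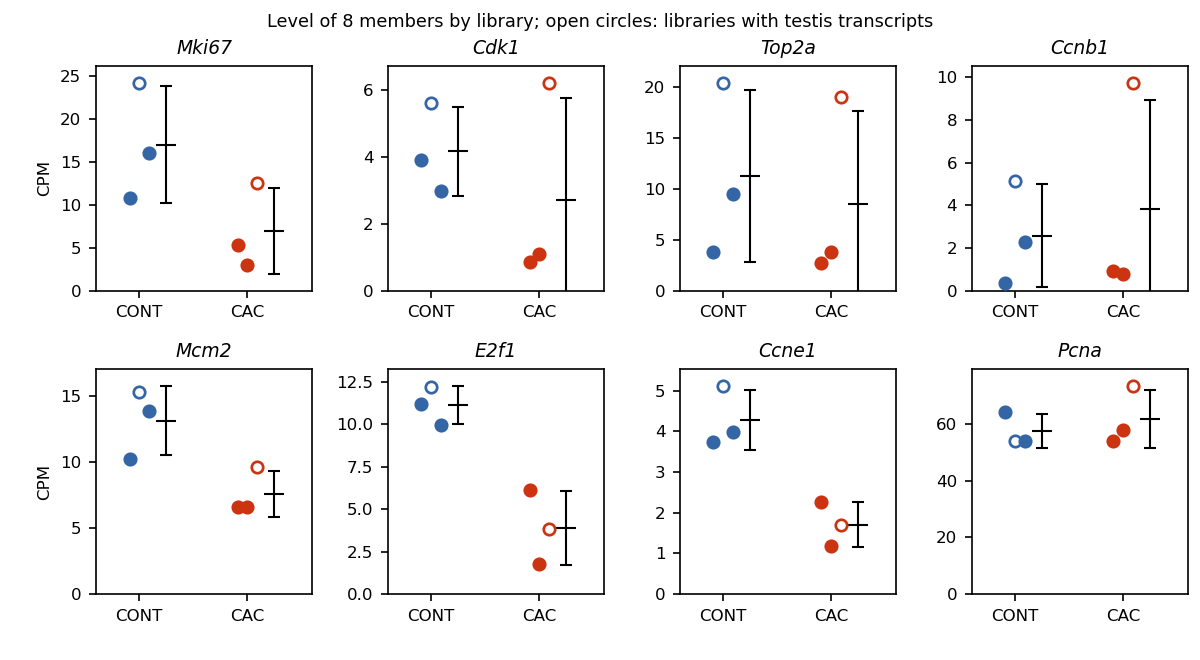
CPM of 4 mitosis members (upper row) and 4 S phase members (lower row) in CONT and CAC mice; circles are libraries, open circles the testis-bearing CONT replicate 2 and CAC replicate 3, and bars the mean ± SD (n = 3), cut off at 0. Mcm2, E2f1 and Ccne1 have all CAC libraries below all CONT libraries, whereas in Cdk1, Top2a and Ccnb1 the open circles lie above the filled ones of their group.

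**Figure D4:**
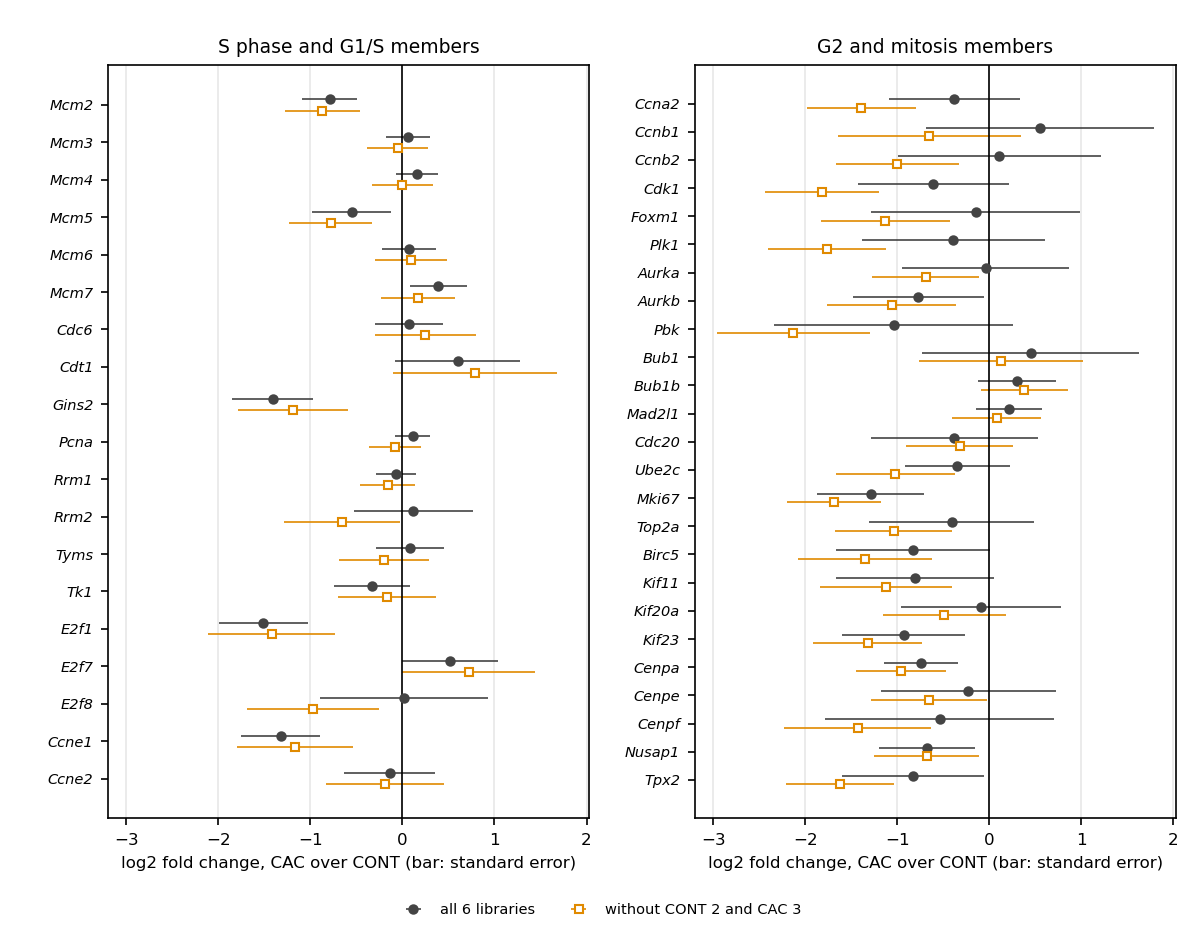
Log2 fold change of CAC over CONT with its standard error for the 19 S phase and G1/S members (left) and the 25 tested mitosis members (right), in all 6 libraries (filled circles) and without CONT replicate 2 and CAC replicate 3 (open squares). The squares lie left of 0 for 22 of 25 mitosis members, and the circles of the S phase members apart from E2f1, Ccne1, Gins2 and Mcm2 lie between -0.55 and 0.60.

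Further genes of the same pathway, none of them members, were counted in the same way, and 0 of 132 passed an adjusted p under 0.05 by edgeR, with 9 at an unadjusted p under 0.05 (6.82%, against 13.3% of all genes). DESeq2 called 4 (Myc, Ccnd1, Tfdp1 and Cdkn2c; 3.03%, against 5.62% of all genes), and voom called 5, the same genes and Btg2 (3.79%, against 5.53% of all genes). The adjusted p by DESeq2 without the testis-bearing libraries was 0.0476 for Myc, 0.570 for Ccnd1, 0.874 for Tfdp1 and 0.248 for Cdkn2c. Of 47 other replication genes, 38 were lower and 9 higher in CAC (median log2 fold change -0.29), 1 of them at an unadjusted p under 0.05. That gene was Rfc3, a subunit of the clamp loader, at 9.72, 8.37 and 7.01 CPM in CONT and 4.19, 4.64 and 5.70 CPM in CAC, with every CAC library below every CONT library. Dut, which keeps uracil out of DNA, and Mcm10, a helicase cofactor, had the next smallest p, with log2 fold changes of -0.95 ± 0.42 and -1.18 ± 0.55. In the other 4 libraries, 34 of 47 were lower with a median of -0.41, and Rfc3, Dut and Mcm10 had -0.92, -1.30 and -1.12. Of 51 other mitosis genes, 39 were lower and 12 higher, with a median of -0.45, and 39 were highest in both testis-bearing libraries. Unadjusted p under 0.05 was reached by Ncaph, a condensin subunit (-0.97 ± 0.38), and Stmn1, a microtubule regulator (-1.27 ± 0.49), followed by Cks1b, a Cdk-binding protein (-1.01 ± 0.47). In the same 4 libraries, 41 of 47 tested were lower with a median of -0.70, and Ncaph, Stmn1 and Cks1b had -0.98, -1.75 and -1.21.

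Genes that act before S phase differed from each other in direction. Of 14 G1 genes, 6 were higher and 8 lower, with 3 higher and 1 lower at an unadjusted p under 0.05 by edgeR (6.31% and 6.95% of all genes). Myc, a transcription factor that promotes growth, was 14.4, 11.8 and 12.2 CPM in CONT replicates 1 to 3 and 33.0, 35.8 and 68.8 CPM in CAC replicates 1 to 3. All CAC mice were above all CONT mice, with a log2 fold change of 1.84 ± 0.33 (SE; unadjusted p = 0.00098, adjusted p = 0.215 by edgeR and 0.00014 by DESeq2), or 1.37 ± 0.30 without the testis-bearing libraries. On the same basis the median of the G1 genes was -0.01.

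Ccnd1, a D cyclin that acts with Cdk4 and Cdk6 in G1, was 14.5, 49.1 and 55.3 CPM in CONT and 13.7, 11.6 and 9.97 CPM in CAC. CONT replicate 1 was almost level with CAC replicate 1, and the log2 fold change was -1.75 ± 0.49 (SE; adjusted p = 0.273 by edgeR and 0.0233 by DESeq2), or -1.47 ± 0.66 without the testis-bearing libraries. Tfdp1, the partner that E2F factors need to bind DNA, was 39.4, 36.2 and 37.0 CPM in CONT and 51.3, 53.2 and 56.4 CPM in CAC. Its groups were narrow and apart, with a log2 fold change of 0.51 ± 0.15 (SE; adjusted p = 0.275 by edgeR and 0.0280 by DESeq2), or 0.45 ± 0.27 without the testis-bearing libraries. Ccnd2, another D cyclin, named after its values were seen, was 219, 213 and 252 CPM in CONT and 323, 292 and 349 CPM in CAC, in the opposite direction to Ccnd1.

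The 20 inhibitors and pocket protein genes had a median of 0.03 on the log2 scale, with 11 higher and 9 lower. Cdkn2c, the Cdk4 and Cdk6 inhibitor p18, was 435, 233 and 173 CPM in CONT and 112, 97.1 and 92.2 CPM in CAC. No CAC library reached a CONT library, and the log2 fold change was -1.48 ± 0.37 (SE; adjusted p = 0.247 by edgeR and 0.0114 by DESeq2), or -1.54 ± 0.54 without the testis-bearing libraries. Gadd45a, a stress gene that slows the cycle, and Btg2, an antiproliferative factor, followed with -1.40 ± 0.56 and 0.65 ± 0.27, and without the testis-bearing libraries with -1.79 ± 0.71 and 0.47 ± 0.39. The median of all 20 was then -0.07.

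Cdkn1a, the inhibitor p21, was named after its values were seen. It was 72.7, 12.8 and 9.04 CPM in CONT and 115, 50.7 and 256 CPM in CAC. CONT replicate 1 lay above CAC replicate 2, so the groups overlapped, and the log2 fold change was 2.17 ± 0.95 (SE; unadjusted p = 0.0592 by edgeR). The highest value was that of the testis-bearing CAC replicate 3, and without both such libraries the log2 fold change was 1.03 ± 0.98.

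**Figure D5:**
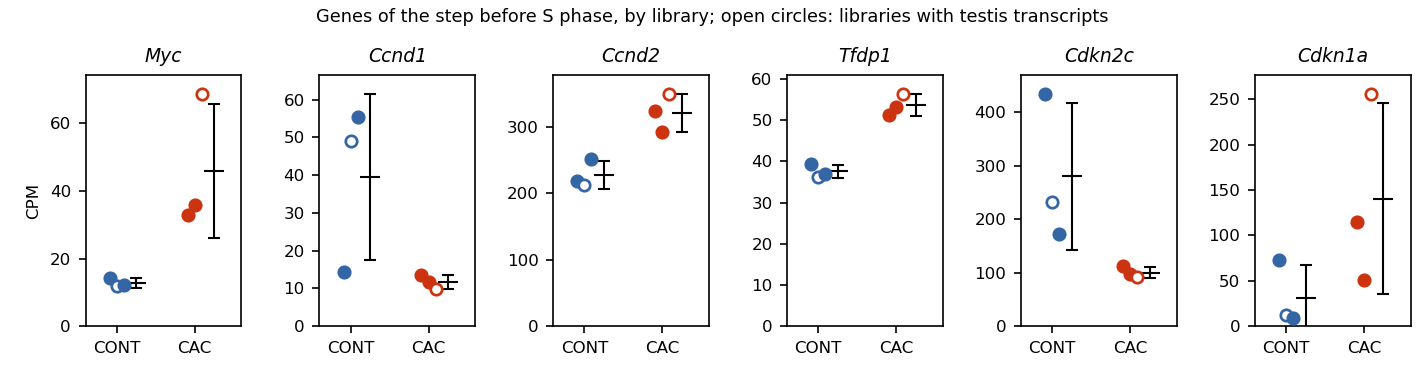
CPM of 6 genes that act before S phase in CONT and CAC mice; circles are libraries, open circles the testis-bearing CONT replicate 2 and CAC replicate 3, and bars the mean ± SD (n = 3), cut off at 0. Myc, Ccnd2 and Tfdp1 were higher in every CAC library than in any CONT library, Ccnd1 and Cdkn2c lower, and Cdkn1a overlapped through CONT replicate 1.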

How the data were processed

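The authors aligned the reads by HISAT2 2.0.5 against the Ensembl mouse genome, and featureCounts 1.5.0-p3 is named in the submitters' processing notes. They deposited whole-number counts per gene, not normalized, and FPKM values, counts per gene length and library total. NEB kits were used for mRNA isolation and libraries, and the strand setting of the counting is not given in the sources used here.

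Counts were fitted in R 4.3.3 with edgeR 4.0.16 (TMM, filter on low counts by group, robust quasi-likelihood test, condition only, Benjamini-Hochberg over all 17296 genes tested). The study's own tool was DESeq2, which was run as an alternative (1.42.0), as were voom with sample quality weights and limma 3.58.1 on deposited FPKM values in log2 with a pseudocount of 1 or 0.1 (minimum FPKM 0.5 in 3 or more libraries). Other alternatives were RLE and upper-quartile scaling, no filter, at least 10 counts in every library, no mitochondrial genes, the replicate number as a block, and each library left out. Added after the marker levels were seen were the fits without both testis-bearing libraries and with the testis marker level as a term. Fits were tested on simulated data. CPM are edgeR's, and the common dispersion was 0.265. The standard error (SE) beside an edgeR log2 fold change was derived from its test. It is the absolute log2 fold change divided by the square root of the quasi-likelihood F statistic. Values per library are given for the 3 members with the smallest unadjusted p in each role and for Mki67, Top2a, Pcna, Mcm2, Ccnb1 and Cdk1. In lists of other genes, those called or else the 3 with the smallest p are named. The members and lists were chosen with earlier results of these data known. Libraries of a group differed by more than counting noise.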

Additional observations from a re-analysis of the deposited data

How the results depend on the processing

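The limits are 3 libraries a group, a common dispersion of 0.265, low levels of the mitosis members and testis transcripts in 1 library of each group. Over the alternatives, values were counted for the single genes picked by the naming rule given above, not for every member. Of these, 567 kept direction and side of the threshold, 15 passed it newly and 16 turned direction. Of the values of gene sets, 187 stayed and 22 moved. Of the S phase members, 4 had an unadjusted p under 0.05 by edgeR. This became 6 with voom (5 lower and Mcm7 higher in CAC; 28.4% of all genes), 2 with the replicate block (11.5% of all genes), 0 without both testis-bearing libraries (edgeR and DESeq2 alike), and 1 to 4 with each library left out. Of the mitosis members, 0 did, which became 1 with DESeq2 (17.9% of all genes with an adjusted p), 7 with voom, 5 (edgeR, 5% of all genes) and 4 (DESeq2, 8.11% of all genes with an adjusted p) without both testis-bearing libraries, 2 with the testis marker level as a term (13.3% of all genes), and 0 to 9 with each library left out. The median log2 fold change of the mitosis members ran from -1.66 to 0.34 with each library left out. At an adjusted p under 0.05, voom called 4 members and each other alternative 0. Among the genes of that rule, directions turned as follows. Without both testis-bearing libraries, edgeR and DESeq2 gave -0.08 and -0.05 for Pcna and -0.65 and -0.60 for Ccnb1. Voom gave -0.14 for E2f7 and -1.23 for Ccnb1, and no filter gave 0.01 for Rrm1. With each library left out, the log2 fold change ran from -0.03 to 0.23 for Pcna, -0.23 to 0.12 for Rrm1, -0.05 to 0.85 for E2f7, -3.52 to 0.37 for Pbk, -0.04 to 0.47 for Mad2l1, -1.78 to 0.35 for Top2a and -1.59 to 1.52 for Ccnb1. The cause of these changes was not tested. Neither the removal of libraries nor the testis marker term can separate testis transcripts from other traits of CONT replicate 2 and CAC replicate 3. With that term Ccnb1 had 0.29 and Top2a -0.43. The replicate numbers did not pair the mice: same-numbered libraries correlated at 0.306, -0.151 and -0.218, and CONT replicate 2 correlated best with CAC replicate 3, at 0.473. Every scaling left the median of all genes within 0.1 of its value.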
